A study of Mus musculus with 48 samples.

Results

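The genes described here are 31 genes of glycolysis and glucose uptake, taken by name from a list and found as 31 of the 50763 gene rows of each count table. They fall into 8 roles: glucose carriers (Slc2a1, Slc2a3), hexokinases and glucose phosphate isomerase (Hk1, Hk2, Gpi1), phosphofructokinases (Pfkl, Pfkm, Pfkp), the bifunctional regulators of phosphofructokinase (Pfkfb1 to Pfkfb4), the lower glycolytic enzymes (Aldoa, Tpi1, Gapdh, Pgk1, Pgam1, Eno1, Eno2, Pkm), lactate dehydrogenases and lactate carriers (Ldha, Ldhb, Slc16a1, Slc16a3, Slc16a7), the control of pyruvate dehydrogenase (Pdk1 to Pdk4, Pdha1), and the uptake inhibitor Txnip. All 31 passed the filter on low counts in every fit.

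RNA was sequenced from primary cells of 4 mouse lines, each heterozygous for a Cre-dependent BERKY3 biosensor allele that reports the active form of 1 G protein alpha subunit. Astrocytes came from Gas*-BERKY3 mice, and lung fibroblasts came from Gai*-BERKY3, Gaq*-BERKY3 and Ga13*-BERKY3 mice. Astrocytes were seeded at 430000 cells per well and fibroblasts at 160000, and polybrene was used at 6 µg/ml in all cultures. Every culture carried the biosensor allele and received an adeno-associated virus, either with Cre under the CMV promoter (biosensor on) or empty (biosensor off), and every culture had its medium replaced 90 min before RNA isolation. The new medium held agonist or none: 1 µM isoproterenol, a beta-adrenergic agonist, for astrocytes and 100 µM TRAP-6, a peptide agonist of the thrombin receptor PAR1, for fibroblasts. Each line thus gave 4 groups (unstimulated or stimulated, empty virus or Cre) of 3 libraries, which makes 16 groups and 48 libraries. The labels give no strain, age or sex of the mice and do not say whether the 3 libraries of a group came from separate animals or cultures, so the p-values measure the spread between these libraries, which may be technical.

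Cells take up glucose through facilitative carriers, of which GLUT1 (Slc2a1) is found in most cells and GLUT3 (Slc2a3) has a high affinity for glucose and is best known from neurons. Hexokinase traps the sugar as a phosphate, phosphofructokinase makes the committed step, and the PFKFB enzymes set the level of its activator, with PFKFB3 having the strongest bias towards making it. Pyruvate is then reduced to lactate and exported, or enters the mitochondrion through pyruvate dehydrogenase, which the PDK kinases switch off. TXNIP is an alpha-arrestin that removes glucose carriers from the cell surface. Astrocytes are known for producing lactate from glucose and glycogen.

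Promoter sequences are shown for 4 genes whose responses are described below: Slc2a1 and Pfkfb3, which moved in opposite directions in astrocytes, and Hk2 and Txnip, which fell in fibroblasts. Each is the 250 bases before the first start listed in the RefSeq promoter table (build GRCm38.p6), which held 29 of the 31 genes. Windows of Slc2a3 and Slc16a7 were not used here. Capitals mark every match, on either strand, to the core of the cAMP response element (TGACG), the E-box (CACGTG), which MondoA and other factors bind, or the core of the hypoxia response element (ACGTG or GCGTG). Every E-box contains the hypoxia core, and matches can overlap.
Slc2a1 (chr4:119108495-119108744, forward strand): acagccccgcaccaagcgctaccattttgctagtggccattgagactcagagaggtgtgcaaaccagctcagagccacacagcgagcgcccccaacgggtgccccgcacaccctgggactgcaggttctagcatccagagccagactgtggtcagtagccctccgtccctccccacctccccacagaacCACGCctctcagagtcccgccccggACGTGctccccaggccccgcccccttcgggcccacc
Pfkfb3 (chr2:11553930-11554179, reverse strand): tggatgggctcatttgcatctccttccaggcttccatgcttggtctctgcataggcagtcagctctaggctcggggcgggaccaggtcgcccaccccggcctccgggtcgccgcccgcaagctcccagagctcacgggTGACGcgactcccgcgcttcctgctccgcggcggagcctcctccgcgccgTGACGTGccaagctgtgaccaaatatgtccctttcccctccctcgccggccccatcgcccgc
Hk2 (chr6:82774455-82774704, reverse strand): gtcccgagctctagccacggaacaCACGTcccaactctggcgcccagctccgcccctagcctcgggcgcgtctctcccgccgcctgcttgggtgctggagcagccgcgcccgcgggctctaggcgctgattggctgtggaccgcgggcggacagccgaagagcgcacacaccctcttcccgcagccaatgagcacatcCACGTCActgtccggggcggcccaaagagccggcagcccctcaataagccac
Txnip (chr3:96557707-96557956, forward strand): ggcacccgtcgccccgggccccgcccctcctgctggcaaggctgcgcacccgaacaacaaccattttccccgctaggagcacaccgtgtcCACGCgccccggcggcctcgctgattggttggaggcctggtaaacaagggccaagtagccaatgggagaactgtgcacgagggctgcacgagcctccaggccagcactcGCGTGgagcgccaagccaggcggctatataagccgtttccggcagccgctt
The Slc2a1 window held 2 hypoxia cores and 0 cAMP cores, whereas the Pfkfb3 window held 2 cAMP cores and 1 hypoxia core. The Hk2 window held 1 cAMP core and 2 hypoxia cores. The Txnip window held 2 hypoxia cores, and none of the 4 windows held the exact E-box CACGTG. Imperfect forms of the E-box were not searched, so this does not say whether a window holds another site for MondoA. Over the 29 windows, 22 (75.9%) held the hypoxia core, against 38.6% of the 27025 first-listed windows in the table. The E-box was in 5 (17.2%, against 6.05%) and the cAMP core in 6 (20.7%, against 17.9%). A match describes the letters of the window and not the binding of a factor.

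Total counts per library ranged from 15.6 to 42.6 M (M, 1000000 counts). The biosensor sequence was at 0 to 1.05 CPM (counts per 1000000 counts of the library) with the empty virus, and with Cre it was at 19.1 to 27.3 CPM in astrocytes and 74.3 to 137 CPM in fibroblasts, as the labels say. The 10 astrocyte markers summed to 8709 to 9429 CPM in the astrocyte libraries and to 163 to 286 in the fibroblast libraries. The 10 fibroblast markers summed to 28091 to 49035 CPM in fibroblasts and to 1664 to 2105 in astrocytes, where 1 of them (Tcf21) was at 0 in all 12 libraries. The astrocyte libraries also held 238 to 268 CPM of 11 microglial and macrophage markers, 789.6 to 999.2 of 9 oligodendrocyte lineage markers and 522 to 565 of 8 neuronal markers. The 8 smooth muscle and pericyte markers summed to 2390 to 2713 CPM there and to 1826 to 4019 in fibroblasts. The 8 markers listed for lung epithelium were at 306 to 360 CPM in astrocytes and at 0.358 to 2.23 in fibroblasts.

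Levels of different genes were compared per kilobase of annotated exon. Astrocytes and fibroblasts had different leading isozymes of hexokinase, phosphofructokinase, lactate dehydrogenase and the lactate carriers, and the same leading gene among the glucose carriers, the PFKFB genes and the enolases. Lactate dehydrogenase B (Ldhb), the form that favours lactate oxidation, had a median of 238 CPM per kb over 12 libraries (227 to 272) in astrocytes and Pkm one of 153. With the length of the principal transcript alone, the order of these was the other way, with Pkm at 314 and Ldhb at 286. In fibroblasts it stood at a median of 18.3 (16.1 to 23) over 36 libraries, while Ldha, the form that favours lactate production, stood at 287 (266 to 333). Ldhb thus made up 70.4% of the summed Ldha and Ldhb level in astrocytes and 6.08% in fibroblasts. The lactate carriers differed in the same manner. MCT1 (Slc16a1) was 98% of the 3 carriers in astrocytes and 27.2% in fibroblasts, where the export carrier MCT4 (Slc16a3) was 72.5%. In astrocytes Slc16a3 was at 1.48 to 5.38 CPM, from 31 counts in the lowest library.

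Hexokinase 1, the constitutive form, was 61.7% of the hexokinase level in astrocytes and 17.2% in fibroblasts, and the inducible Hk2 made up the rest. Muscle-type phosphofructokinase Pfkm was 65.2% in astrocytes and 22.3% in fibroblasts, while the liver-type Pfkl was 9.67% and 63.4%. With the length of the principal transcript of each gene in place of all its exons, a choice made after seeing the data, Pfkp (46.3%) stood above Pfkm (43.6%) in astrocytes, so the order of these is not settled. Under that length Hk1, Ldhb and Slc16a1 kept the higher share in astrocytes (76.7%, 60.4% and 97.7%). Among the kinases that switch off pyruvate dehydrogenase, astrocytes were led by Pdk2 (36.4%) and Pdk3 (33.1%), whose library ranges overlapped, and fibroblasts by Pdk3 (57.8%), with Pdk1 at 25.4%. Pfkfb3 led the PFKFB genes in astrocytes (72.2%) and in fibroblasts (74.4%), and Pfkfb1, the liver and muscle form, was at most 2.02% in every library. The glucose carriers were led by Slc2a1 in both cell types (83.3% and 97.8%), and the brain enolase Eno2 held 14.5% and 8.36% of the enolase level. With principal transcript lengths its shares were 9.69% and 5.47%, and counts on the near-identical copies of Eno1, 63.5% of that gene and its copies, are in neither.

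**Figure D1:**
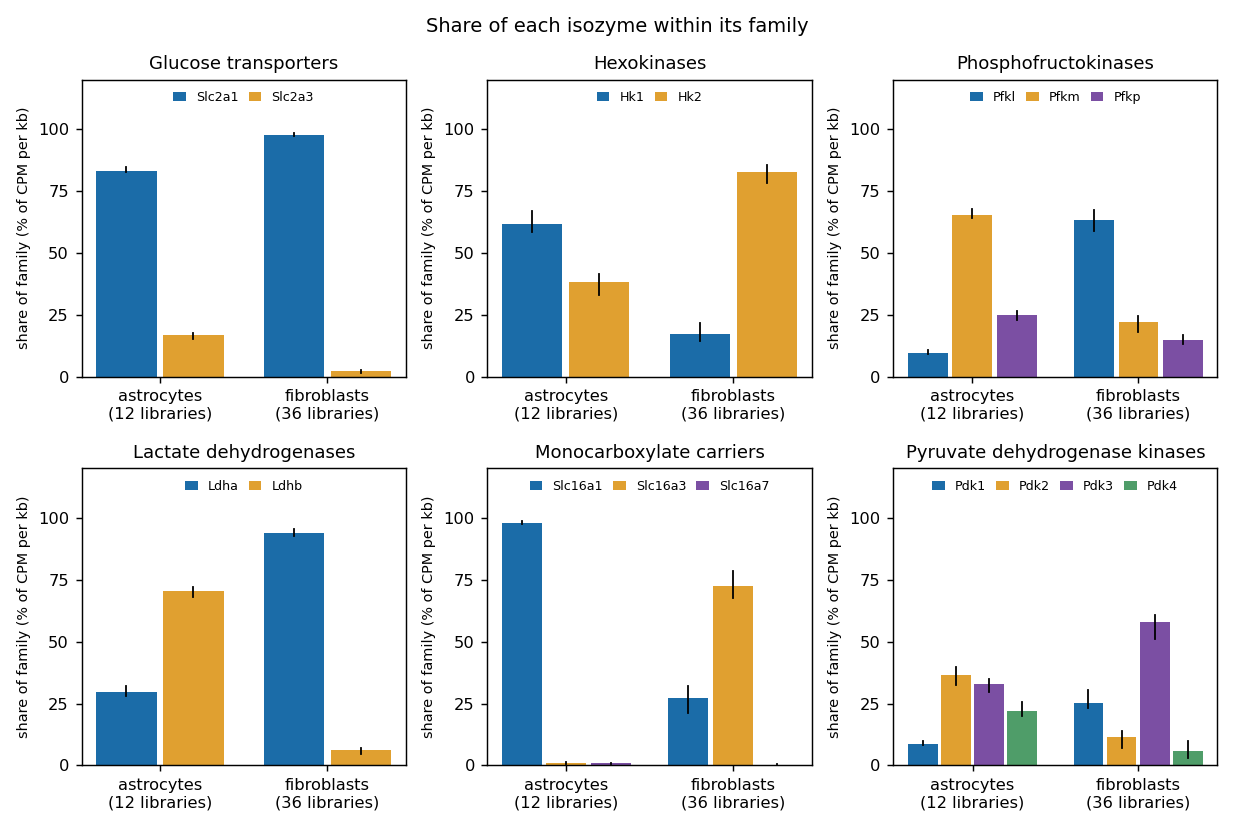
Share of each isozyme in its family, as percent of the summed CPM per kb (y axis), in 12 astrocyte and 36 fibroblast libraries. Bars are medians and black lines span the lowest and highest library; Ldhb and Slc16a1 lead in astrocytes (70.4% and 98%), and Ldha and Slc16a3 lead in fibroblasts (93.9% and 72.5%).

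In unstimulated cells with the empty virus, 28 of the 31 genes differed between astrocytes and fibroblasts, 10 higher and 18 lower in astrocytes (edgeR's quasi-likelihood test over 48 libraries and 19316 genes, Benjamini-Hochberg adjusted p under 0.05). Of all tested genes 80.1% differed, 43.1% higher and 36.9% lower, so the count by itself is near the background. The median log2 difference was -0.54 for the 31 genes and 0.09 for all genes. Lower in astrocytes were Slc16a3 (log2 difference -6.32 ± 0.13, SE), Hk2 (-3.03 ± 0.05), Slc2a1 (-2.69 ± 0.05), Pfkl (-2.27 ± 0.05) and Ldha (-2.15 ± 0.04). The lower glycolytic enzymes were all lower in astrocytes, from Pkm (-1.70 ± 0.04) to Eno2 (-0.44 ± 0.12). Higher were Ldhb (3.17 ± 0.06), Slc16a7 (2.37 ± 0.21), Slc16a1 (2.20 ± 0.05), Pfkm (2.01 ± 0.04), Pdk2 (1.94 ± 0.07), Pdk4 (1.93 ± 0.12), Pfkp (1.30 ± 0.04) and Slc2a3 (0.81 ± 0.07). Hk1, Pfkfb1 and Pfkfb4 were not called. Scaling by library totals alone, tried after seeing the data, moved the median of all genes to 0.58 and gave 13 genes higher and 15 lower (83.2% of all genes called). Under it Pdha1 turned from -0.12 to 0.37 and Eno2 from -0.44 to 0.05, and Hk1 (0.50 ± 0.08) and Pfkfb4 (0.64 ± 0.14) were called, so the small differences depend on the scaling. Cell type, organ, culture medium, seeding density, virus dilution and mouse line change together in this comparison and cannot be told apart.

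**Figure D2:**
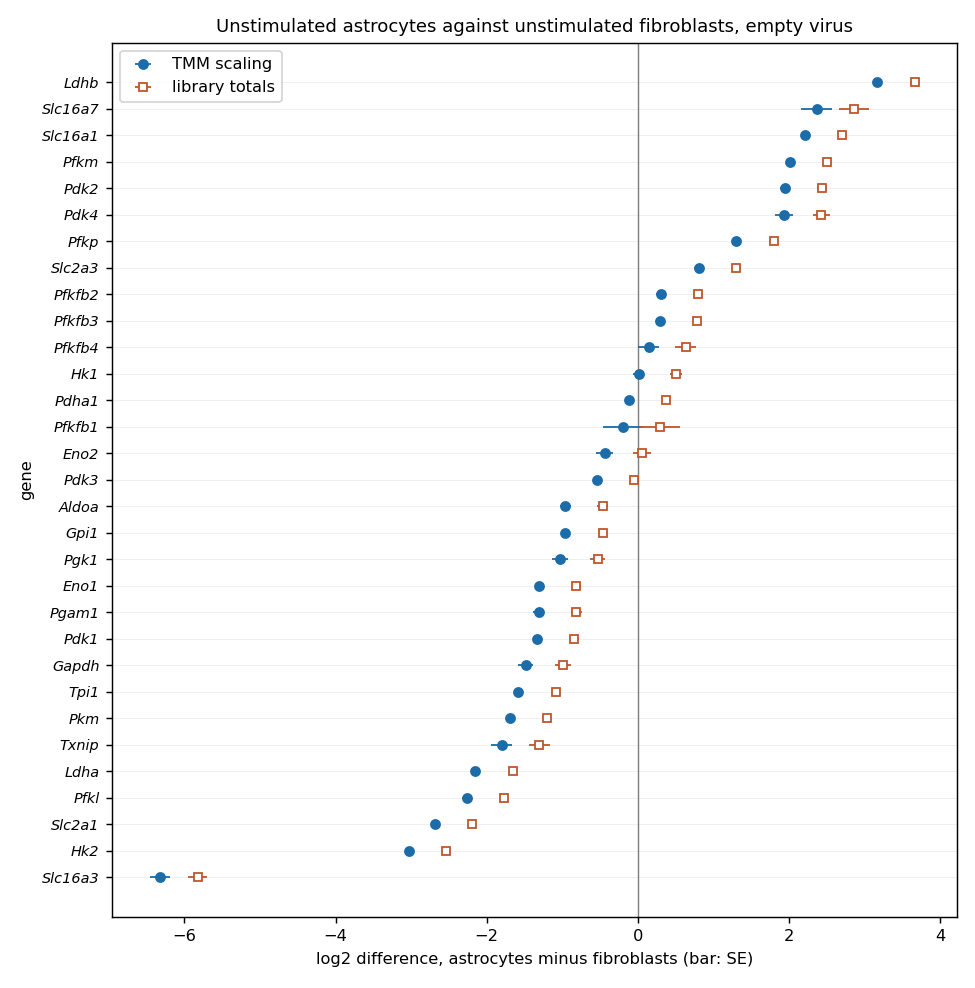
Log2 difference of each of the 31 genes between unstimulated astrocytes and unstimulated fibroblasts with the empty virus (x axis; bar, SE), under TMM scaling and under library totals. The scalings shift all genes alike: Slc16a3 (-6.32 under TMM) and Ldhb (3.17) mark the ends under each, while Pdha1, Eno2 and Pfkfb1 lie on different sides of 0.

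Isoproterenol raised both glucose carriers in astrocytes and lowered the regulator Pfkfb3. For Slc2a1 the 3 unstimulated libraries with the empty virus were at 127, 125 and 128 CPM and the 3 stimulated ones at 191, 212 and 212. With Cre the values were 132, 131 and 133 without agonist and 212, 206 and 210 with it. The groups did not overlap under either virus. The mean log2 response over both viruses was 0.73 ± 0.04 (adjusted p = 2.31e-18). Slc2a3 went from 51.3, 53.5 and 53.8 CPM to 83.5, 78.7 and 83.3 with the empty virus and from 53.6, 56 and 56.5 to 83.5, 82 and 88.6 with Cre, a log2 response of 0.67 ± 0.04 (adjusted p = 2.32e-15). The share of Slc2a3 in the summed level of the pair was 16.8% ± 0.393 (SD, n = 3) without and 16.2% ± 1.14 with agonist under the empty virus.

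Pfkfb3 fell. With the empty virus it was at 239, 218 and 250 CPM without agonist and at 151, 171 and 152 with it, and with Cre at 243, 216 and 245 and at 145, 159 and 149. All 6 stimulated libraries lay below all 6 unstimulated ones, and the log2 response was -0.56 ± 0.04 (adjusted p = 1.11e-12). Pfkfb4, a paralogue at a lower level, had a log2 response of -0.32 ± 0.09 (adjusted p = 0.0103). Its libraries overlapped with the empty virus (15.9, 13.2 and 16.1 CPM without agonist, 12.5, 11.9 and 14.6 with it) and not with Cre (21.1, 13.7 and 16.3 against 10.7, 12.5 and 11.3). Pfkfb2 (-0.07 ± 0.05) and Pfkfb1 (0.55 ± 0.23, at 0.781 to 1.9 CPM) were not called. Pfkfb3 made up 74.9% ± 0.592 of the PFKFB level without agonist and 68.7% ± 1.79 with it under the empty virus (SD, n = 3).

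The remaining isoproterenol responses were smaller. Ldha rose, from 318, 305 and 305 CPM to 348, 337 and 343 with the empty virus and from 336, 313 and 330 to 389, 349 and 356 with Cre (log2 response 0.20 ± 0.04, adjusted p = 2.24e-05). The ranges of the 3 libraries did not overlap with either virus. Slc16a3 rose from its low level, from 3.2, 4.21 and 1.48 CPM to 4.35, 3.72 and 5.04 with the empty virus and from 2.51, 3.02 and 3.33 to 5.38, 4.99 and 5.26 with Cre (0.75 ± 0.17, adjusted p = 0.000796). Only the Cre groups were separate. Pfkm (219, 229 and 226 CPM against 241, 237 and 237 with the empty virus; 242, 230 and 232 against 241, 247 and 238 with Cre) had a log2 response of 0.11 ± 0.03 (adjusted p = 0.00986), and Pfkp, at 366 to 384 CPM without agonist and 325 to 351 with it, one of -0.10 ± 0.03 (adjusted p = 0.0297). Hk1, Hk2, Gpi1, the 4 PDK kinases, Pdha1, Slc16a1, Slc16a7, Ldhb and Txnip were not called, and Txnip was at -0.01 ± 0.06.

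Of the 8 lower glycolytic enzymes 5 were called higher with isoproterenol, beside 11.7% of all genes, with Gapdh the furthest (log2 response 0.70 ± 0.09, adjusted p = 2.19e-07). Gapdh, a gene often taken as a constant reference, was counted at 8.4, 11.9 and 8.27 CPM without agonist and 14, 15.2 and 14.6 with it under the empty virus, and at 8.03, 11.3 and 9.08 and 14.2, 15 and 16.5 under Cre. These levels may be only a part of its reads. The table holds 157 near-identical copies of Gapdh, and they took 91.1% of the counts of Gapdh and its copies together. Over the sum of gene and copies, a choice made after seeing the data, the response was 0.24 ± 0.06 (adjusted p = 0.0146). With the empty virus alone the summed response was 0.20 (adjusted p = 0.191) and with Cre alone 0.27 (adjusted p = 0.0641), and neither was called. The share on copies was 72.3% for Pgam1, 63.5% for Eno1, 44.7% for Gpi1, 31.3% for Aldoa and 23.1% for Pgk1. For Tpi1, Ldha, Pkm and Ldhb it was 11.7% to 17%. The levels per kb of all these genes may therefore be understated. Whether the reads on a copy came from the gene or from the copy itself was not examined. Pdha1 had 0.0417% on a copy, and for the other members the search found no copy.

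Aldoa (0.18 ± 0.07), Pgam1 (0.15 ± 0.05), Tpi1 (0.10 ± 0.04) and Pkm (0.09 ± 0.03) had small responses. Pgam1 went from 75.9, 75.5 and 81 to 75.4, 83.2 and 80.2 CPM with the empty virus and from 64.9, 74.6 and 77.4 to 85.7, 77.5 and 79.6 with Cre, and with copies summed it lost its call (0.09 ± 0.04, adjusted p = 0.0947), as did Pkm (0.09 ± 0.03, adjusted p = 0.055). In the 12 fits that each left out 1 library, Pkm stayed called in 3, Aldoa in 4, Pfkp in 4 and Tpi1 in 5, with adjusted p reaching 0.162, 0.113, 0.123 and 0.0989. Pgam1 lost its call without replicate 1 of the unstimulated Cre group (adjusted p = 0.0509). Under library totals Aldoa, Pgam1, Tpi1 and Pkm all lost their call, with adjusted p of 0.14, 0.123, 0.374 and 0.424. Eno1 (0.05 ± 0.05), Eno2 (-0.01 ± 0.06) and Pgk1 (0.03 ± 0.08) were not called.

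**Figure D3:**
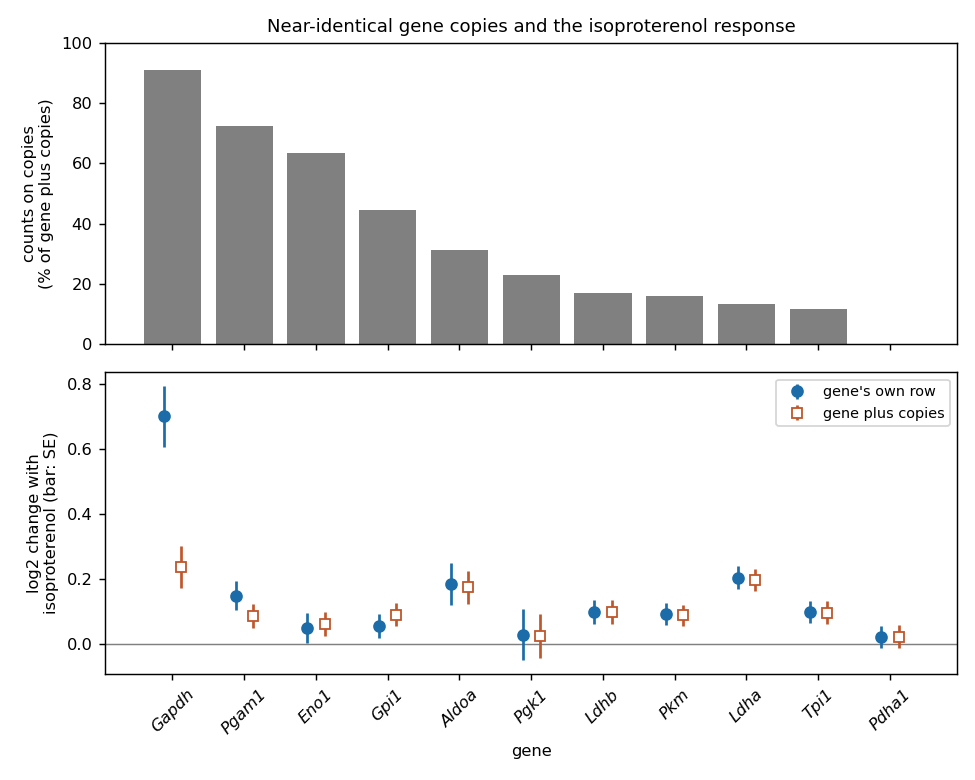
Upper panel: percent of the summed counts of each gene and its near-identical copies that fell on the copies, over 48 libraries. Lower panel: log2 response to isoproterenol (bar, SE) of the gene's own row and of gene plus copies; for Gapdh the response goes from 0.70 to 0.24, and for Ldha it stays at 0.20.

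In all, 13 of the 31 genes were called in the mean isoproterenol response, 10 higher and 3 lower, beside 23.3% of the 18103 genes tested (11.7% higher, 11.5% lower). The median log2 response was 0.06 for the 31 genes and -0.00369 for all genes. With library totals as the scaling 5 rose (Slc2a1, Slc2a3, Gapdh, Ldha and Slc16a3) and 4 fell (Pfkfb3, Pfkfb4, Pfkp and Slc16a1), beside 26.1% of all genes. With the empty virus alone 7 were called (background 14.7%) and with Cre alone 8 (14.3%). The sums of the marker lists overlapped between unstimulated and stimulated astrocytes (over both viruses, astrocyte markers at 8761 to 9232 CPM without and 8709 to 9429 with agonist, and microglial markers at 238 to 260 and 244 to 268). Single markers did move, among them 3 of 11 microglial markers higher and 1 lower, and the neuronal marker Gad1 (1.88 ± 0.10). Their part in these responses was not tested, and in bulk RNA fewer cells of a type and less RNA per cell cannot be told apart.

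**Figure D4:**
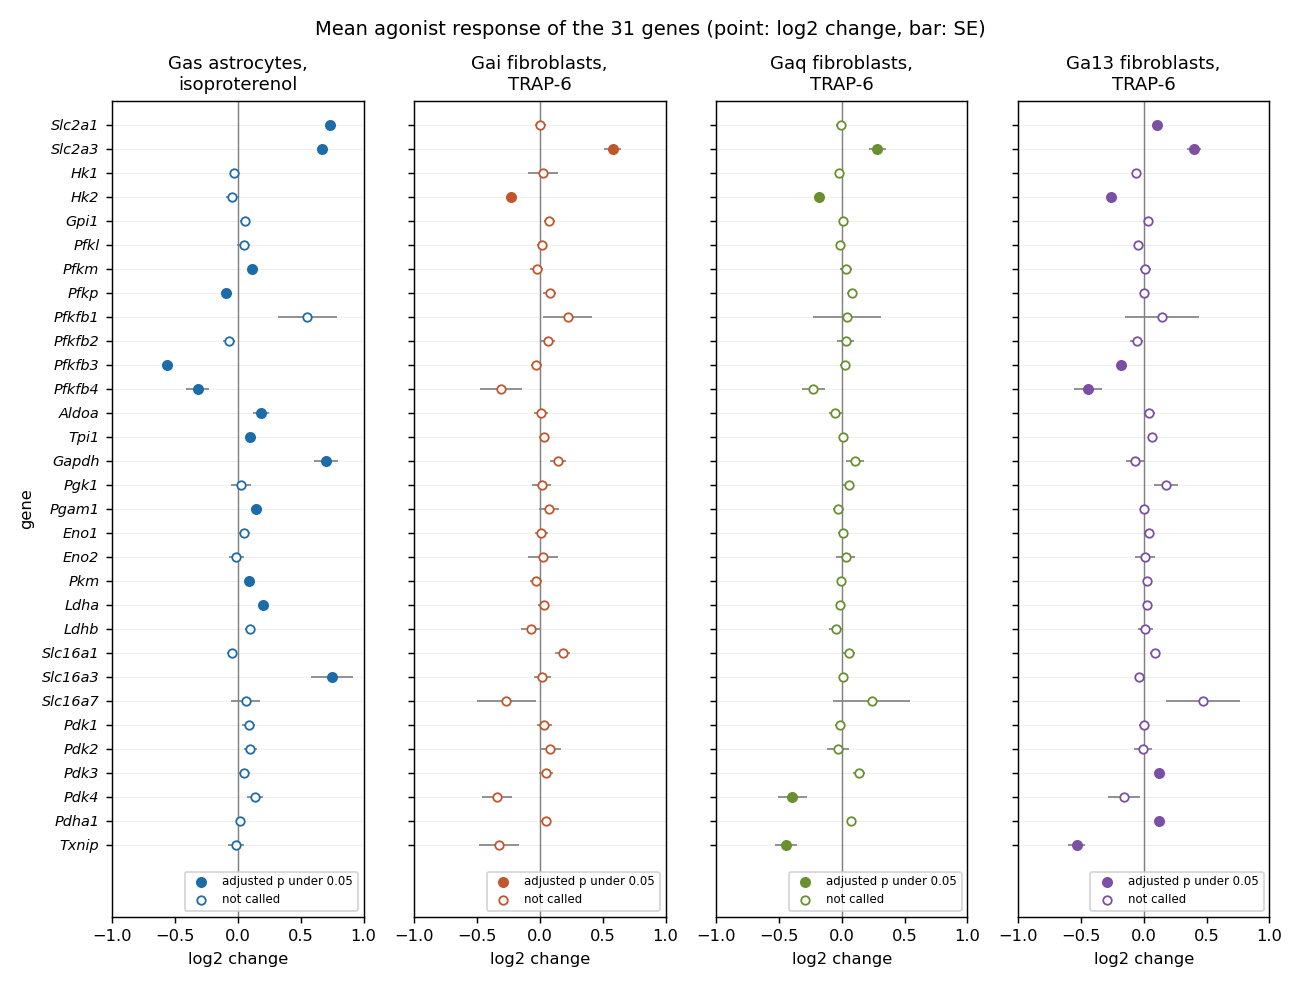
Mean log2 response to the agonist over both viruses (x axis; bar, SE) for the 31 genes in the 4 lines. Filled points passed an adjusted p of 0.05: 13 genes with isoproterenol in Gas astrocytes, and with TRAP-6 2 in Gai, 4 in Gaq and 8 in Ga13 fibroblasts.

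TRAP-6 raised Slc2a3 and lowered Hk2 in each of the 3 fibroblast lines, while Slc2a1 had log2 responses between -0.01 and 0.10. Slc2a3 in Gai fibroblasts went from 23.1, 22 and 19.6 CPM to 35.1, 28.3 and 30.6 with the empty virus and from 23.6, 24.3 and 22.7 to 38.6, 34.2 and 32.6 with Cre (0.58 ± 0.07, adjusted p = 0.000214). In Ga13 it went from 21.4, 21.7 and 23.8 to 28.3, 29.6 and 31.3 and from 23.9, 21.9 and 24.3 to 29.6, 25.9 and 30.5 (0.40 ± 0.06, adjusted p = 3.33e-06). The stimulated libraries were above the unstimulated ones in these lines under either virus. In Gaq the rise was 0.28 ± 0.07 (adjusted p = 0.00784), from 18.2, 18.2 and 24.4 to 23.7, 25.2 and 23.8 CPM, where replicate 3 without agonist lay within the stimulated range, and from 23.8, 20.4 and 22.6 to 27.3, 26 and 25.8 with Cre, with no overlap. Slc2a1 is the far more abundant carrier here, at 487 to 673 CPM. It was called in Ga13 (0.10 ± 0.03, adjusted p = 0.00622), with overlapping libraries under the empty virus (521, 534 and 550 against 515, 540 and 563 CPM) and separate ones with Cre (487, 517 and 509 against 547, 558 and 539). It was at 0.01 ± 0.04 in Gai and -0.01 ± 0.03 in Gaq.

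Hk2, the main hexokinase of these fibroblasts, fell with TRAP-6. In Ga13 it stood at 596, 585 and 593 CPM without agonist and 441, 460 and 454 with it under the empty virus, and at 539, 557 and 587 and 485, 486 and 489 under Cre (-0.26 ± 0.02, adjusted p = 7.84e-10). In Gai it went from 528, 571 and 564 to 467, 496 and 459 and, with Cre, from 548, 573 and 563 to 469, 450 and 477 (-0.23 ± 0.04, adjusted p = 0.00473). In Gaq it went from 554, 536 and 559 to 471, 480 and 467 and, with Cre, from 534, 534 and 538 to 442, 468 and 467 (-0.18 ± 0.03, adjusted p = 2.31e-05). No stimulated library reached an unstimulated one within any line. Hk1 was not called in any of the 3 lines under TMM scaling. In Ga13 its 6 stimulated libraries, at 131 to 145.1 CPM, nevertheless lay below the 6 unstimulated ones, at 145.3 to 149.8, with a log2 response of -0.06 ± 0.03 (adjusted p = 0.28). Under library totals it was called there (-0.10 ± 0.03, adjusted p = 0.0298).

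Txnip fell in Gaq and Ga13. In Ga13 it went from 108, 102 and 94.7 CPM to 65.8, 67 and 58.6 with the empty virus and from 98.5, 92.5 and 96.7 to 73.2, 76.6 and 58.2 with Cre (-0.53 ± 0.07, adjusted p = 0.000294). In Gaq it went from 107, 109 and 91.5 to 72.3, 71.5 and 58.7 and, with Cre, from 105, 96.7 and 88.6 to 77.4, 82.6 and 65.4 (-0.44 ± 0.09, adjusted p = 0.0126). The groups were separate in both lines. In Gai the response was -0.33 ± 0.16 (adjusted p = 0.562) without a term for the replicate number and -0.32 ± 0.04 (adjusted p = 3.04e-07) with it. There replicate 1 was low in all 4 groups (64.2, 63.2, 51.6 and 52.6 CPM, against 68.5 to 97.1 in the other replicates), and within each replicate number the stimulated library was below the unstimulated one.

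Replicate numbers met the rule for pairing only in Gai, so the blocked values stand beside the unblocked ones for this line. Whether they pair all its libraries is not settled, since 10 of 18 pairs correlated best with their own number. Replicate 1 stood apart, with a chi-square per degree of freedom of 9.71 to 19.3 against the others of its group. Replicates 2 and 3 gave 2.99 to 3.44. A shared outlying replicate can raise the correlations of the other replicates too. With the block 5 of the 31 genes were called in Gai, 2 higher and 3 lower, against 2 (1 higher and 1 lower) without it. Of all genes 4.99% were called with the block and 1.12% without it. The additional genes were Txnip, Slc16a1 (0.18 ± 0.05, adjusted p = 0.0109) and Pdk4 (-0.34 ± 0.10, adjusted p = 0.0326). Slc16a1 went from 47.2, 40.3 and 39 to 50.4, 42.8 and 48.9 CPM with the empty virus and from 44.7, 40 and 40.1 to 46.5, 47.9 and 44.8 with Cre. Pdk4 was at 8.87, 11.4 and 8.42 CPM against 6.11, 8.94 and 8.67, and with Cre at 9.8, 9.8 and 13.8 against 7.63, 8.67 and 8.51. For the empty virus and for Cre alone, 3 genes each were called with the block (Slc2a3, Hk2 and Txnip) and 1 each without it (Slc2a3). The shares of all genes called with the block were 1.59% and 2.22%.

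The other members called in the mean TRAP-6 response were Pfkfb3, Pfkfb4, Pdha1 and Pdk3 in Ga13 and Pdk4 in Gaq. In Ga13 fibroblasts Pfkfb3 went from 148, 140 and 158 CPM to 124, 118 and 128 with the empty virus and from 135, 139 and 146 to 125, 119 and 127 with Cre (-0.18 ± 0.03, adjusted p = 0.000155), with no overlap. Pfkfb4 was at 11.6, 8.63 and 8.76 against 6.15, 8.33 and 6.24 CPM, and with Cre at 8.21, 9.89 and 11.2 against 6.12, 8.39 and 6.5 (-0.44 ± 0.11, adjusted p = 0.00654). In Gaq and Gai Pfkfb4 had log2 responses of -0.22 ± 0.09 and -0.31 ± 0.17, which were not called. Pdha1, the catalytic subunit of pyruvate dehydrogenase, was at 155, 160 and 157 against 168, 169 and 167 CPM in Ga13, and with Cre at 152, 166 and 164 against 169, 171 and 164 (0.12 ± 0.03, adjusted p = 0.0049). Pdk3 there was at 52.9, 55.4 and 52.3 against 55.1, 52.5 and 58.1 CPM, and with Cre at 51.4, 50.3 and 53.1 against 54.6, 55.9 and 57.9 (0.12 ± 0.04, adjusted p = 0.0428), and it stayed called in 4 of 12 fits that left out 1 library (adjusted p up to 0.142). In Gaq Pdk4 was at 11.4, 11.4 and 9.25 against 6.49, 7.22 and 6.79 CPM, and with Cre at 6.7, 8.82 and 6.11 against 4.87, 7.72 and 5.83 (-0.39 ± 0.12, adjusted p = 0.0406). That call was lost with DESeq2 (adjusted p = 0.0646) and held in 3 of 12 fits without 1 library (up to 0.168).

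**Figure D5:**
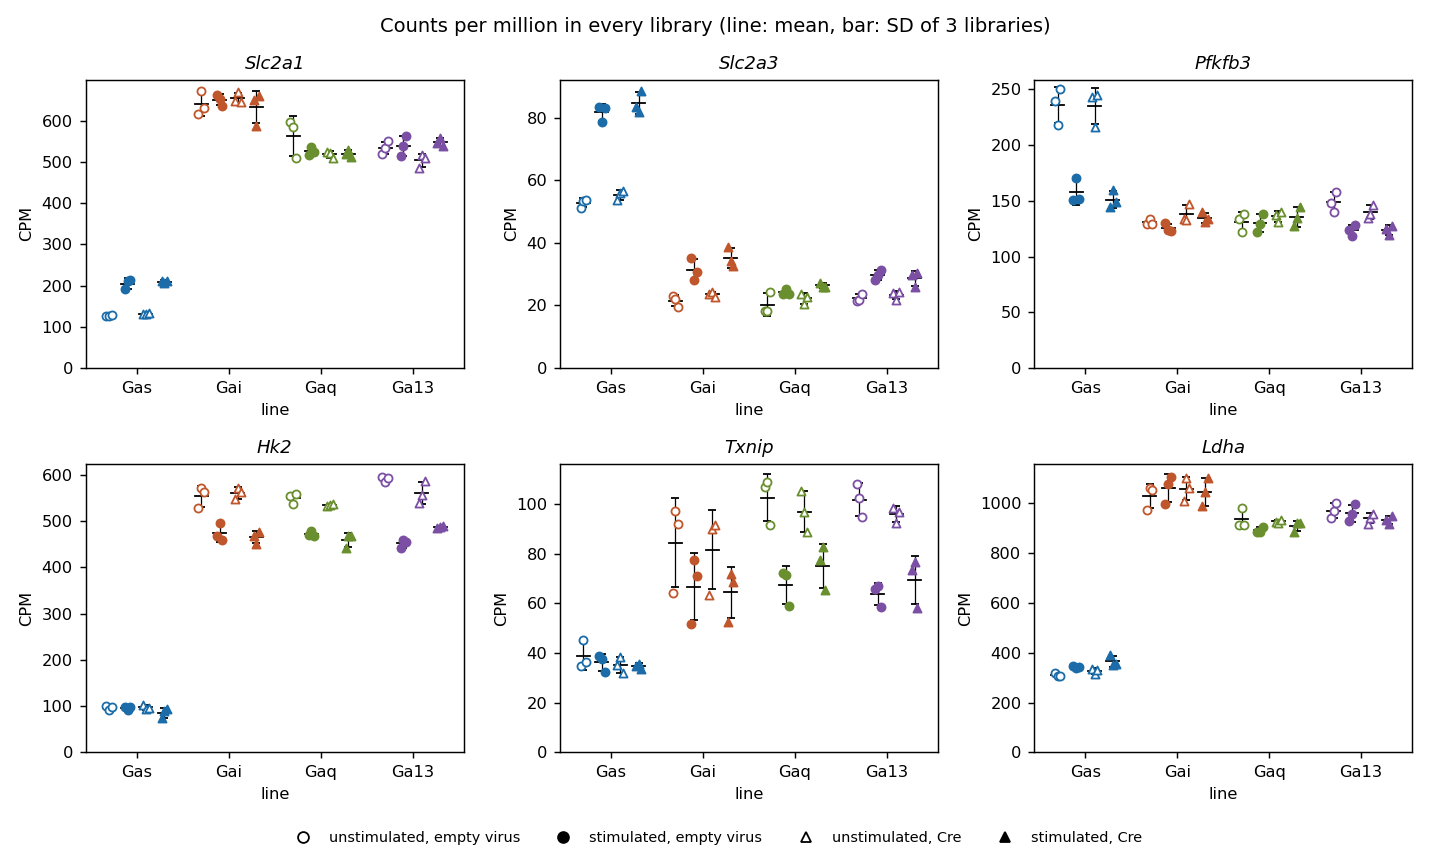
CPM in each of the 48 libraries (y axis, from 0) for 6 of the genes, by line; open symbols are unstimulated and filled ones stimulated, circles the empty virus and triangles Cre, with the mean and SD of 3 libraries. Slc2a1 rises in Gas astrocytes, Slc2a3 rises and Hk2 falls where the stimulated libraries separate, and replicate 1 of Gai is low for Txnip (51.6 to 64.2 CPM).

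Counted over the list, the mean TRAP-6 response called 2 of the 31 genes in Gai (1 higher, 1 lower; background 1.12%, of which 0.732% higher and 0.388% lower), 4 in Gaq (1 higher, 3 lower; background 5.61%, 3.78% higher and 1.83% lower) and 8 in Ga13 (4 higher, 4 lower; background 8.38%, 4.69% higher and 3.69% lower). The medians of the 31 genes were 0.03, 0.00727 and 0.01, and those of all genes -0.00172, -0.00624 and -0.00165. In Ga13 the split under library totals was 1 higher and 6 lower, beside 10.5% of all genes. Slc2a1, Pdk3 and Pdha1 were no longer called, and Hk1 and Pfkl (-0.08 ± 0.03, adjusted p = 0.0325) were called lower. None of the 8 lower glycolytic enzymes, the 3 phosphofructokinases and the 2 lactate dehydrogenases was called in the mean response of a fibroblast line by edgeR with TMM scaling and no block. With the empty virus alone 1 was called in Gai (background 0.119%), 3 in Gaq (2.65%) and 4 in Ga13 (3.88%). With Cre alone 1 was called in Gai (0.238%), 1 in Gaq (3.37%) and 4 in Ga13 (5.37%). Leaving out 1 library gave 0 to 1 with the empty virus and 0 to 2 with Cre in Gai. In Gaq it gave 1 to 4 and 0 to 1, and in Ga13 4 to 5 and 2 to 5. The share of all genes called in those fits is not given here.

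In the same contrast the sum of 10 astrocyte markers was at 172 to 184 CPM without and 193 to 209 with TRAP-6 in Ga13 with the empty virus, and at 185 to 192 and 203 to 221 in Gaq, with Gja1, a gap junction gene that fibroblasts also express, as the called marker (0.55 ± 0.04 in Ga13, 0.41 ± 0.04 in Gaq). The sum of 9 oligodendrocyte lineage markers was at 417 to 455 without and 335 to 370 with TRAP-6 in Ga13, and at 426 to 443 and 382 to 388 in Gaq, where 3 of the 9 were at 0 in every library of these groups and Pdgfra, also a fibroblast gene, was called lower in each. The sum of 8 smooth muscle and pericyte markers was at 2820 to 3097 CPM without and 3185 to 3413 with TRAP-6 in Ga13 with the empty virus, and at 2724 to 2870 and 3039 to 3169 with Cre. In Gaq it was at 1826 to 1948 and 1938 to 1999 with the empty virus, which overlap, and at 1842 to 1948 and 2007 to 2284 with Cre. Acta2 and Cnn1, contractile genes, were called higher in both lines (Ga13 0.23 ± 0.03 and 0.27 ± 0.03, Gaq 0.15 ± 0.03 and 0.19 ± 0.05). The part of these changes in the responses above was not tested.

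Line-to-line differences of the mean TRAP-6 response were tested in 1 fit of the 36 fibroblast libraries (16749 genes). The background given is the share of all genes called at an adjusted p under 0.05. The share of all genes at an unadjusted p under 0.05 is not given, so the counts at that cutoff have no background. None of the 31 genes was called by edgeR in Gaq minus Gai (1 at an unadjusted p under 0.05; background 0.137%), Ga13 minus Gai (2; 0.316%) or Ga13 minus Gaq (2; 0%), and DESeq2 called 0 in each. Pfkfb3 came closest by p, with Ga13 minus Gaq at -0.21 ± 0.06 (unadjusted p = 0.00046, adjusted p = 0.674) and Ga13 minus Gai at -0.16 ± 0.06 (adjusted p = 0.369). For Slc2a3 the difference Gaq minus Gai was -0.30 ± 0.10 (adjusted p = 0.429). With the replicate number as a block within line, Pfkfb3 was called in Ga13 minus Gai (adjusted p = 0.0469) and Ga13 minus Gaq (adjusted p = 0.0348), and Txnip in Ga13 minus Gai (-0.22 ± 0.05, adjusted p = 0.0156), beside 1.72% of all genes in Ga13 minus Gai and 0.0418% in Ga13 minus Gaq. The lines also differed in the sum of the 11 microglial and macrophage markers, at 159 to 237 CPM in Gai, 83.2 to 104 in Gaq and 62.2 to 77.2 in Ga13, whose part was not tested.

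In the comparison of Cre with the empty virus, 1 of the 31 genes was called in 1 line. Each background below is the share of all genes called at an adjusted p under 0.05. The share of all genes at an unadjusted p under 0.05 is not given, so the counts at that cutoff have no background. In unstimulated cells none was called in Gas (1 at an unadjusted p under 0.05; background 0.00552%), Gai (0; 0%) or Ga13 (5; 0.00632%), and 1 was called in Gaq (2.65%). That gene was Pdk4, at 11.4, 11.4 and 9.25 CPM with the empty virus and 6.7, 8.82 and 6.11 with Cre (-0.56 ± 0.16, adjusted p = 0.0485), with no overlap. The call was lost with DESeq2 (adjusted p = 0.0646) and in 7 of the 12 fits without 1 library: without replicate 1 (0.197) or 2 (0.181) of the unstimulated empty virus group, without replicate 1 (0.232) or 3 (0.237) of the unstimulated Cre group, and without replicate 1 (0.0596), 2 (0.0606) or 3 (0.055) of the stimulated empty virus group. The 10 fibroblast markers moved with Cre in this line, summing to 36760 to 39359 CPM with the empty virus and 42244 to 45190 with Cre in unstimulated cells. The 5 mesothelial markers (363 to 453 against 466 to 529 CPM) and the 9 oligodendrocyte lineage markers (426 to 443 against 446 to 470) were separate too, and the part of these lists was not tested. In stimulated cells edgeR called 0 of the 31 genes in Gas (1 at an unadjusted p under 0.05; background 0.0166%), Gai (0; 0%), Gaq (3; 3.41%) and Ga13 (5; 0.0379%), and DESeq2 called 0 in each of these contrasts of unstimulated and stimulated cells.

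The difference between the responses with Cre and with the empty virus was called for 0 of the 31 genes in Gas (0 at an unadjusted p under 0.05; background 0%), Gai (0; 0%), Gaq (1; 0.161%) and Ga13 (4; 0.0821%) by edgeR, with 2 (of the 60 genes it called) by DESeq2 in Ga13 and 0 in the other lines. The Ga13 genes were Hk2, which fell by 0.35 ± 0.04 with the empty virus and by 0.16 ± 0.03 with Cre (difference 0.19 ± 0.05, adjusted p = 0.142; DESeq2 adjusted p = 0.00967), and Gpi1 (difference -0.17 ± 0.05, adjusted p = 0.276; DESeq2 adjusted p = 0.033). Gpi1 was at 350 to 360 CPM without and 370 to 378 with TRAP-6 under the empty virus, and at 368 to 388 and 354 to 357 under Cre. With the replicate block, edgeR called Hk2 (0.19 ± 0.04, adjusted p = 0.00654) and Gpi1 (-0.17 ± 0.04, adjusted p = 0.0401) as well. The share of all genes called for this difference with the block is not given here. Replicate numbers did not meet the pairing rule in Ga13. Both genes were named after their values were seen. The backgrounds given are shares of all genes called at an adjusted p under 0.05. The share of all genes at an unadjusted p under 0.05 is not given, so the counts at that cutoff have no background.

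Beyond the 31 genes, 81 other genes of glucose metabolism were followed in 8 lists. In astrocytes 28 of the 70 tested were called with isoproterenol, 16 higher and 12 lower, beside 23.3% of all genes. Among 8 other glucose carriers Slc2a8 rose (0.67 ± 0.07), Slc2a13, a myo-inositol carrier, rose (0.23 ± 0.07) and Slc2a10 fell (-0.58 ± 0.08). Among 23 genes of the hypoxia pathway 5 rose, led by Ndrg1 (1.72 ± 0.05), Mxi1 (0.85 ± 0.04) and Egln3 (0.64 ± 0.05), and 5 fell, among them Vegfa (-0.73 ± 0.06), named after its value was seen. Of 7 genes of MondoA and the alpha-arrestins, the family of Txnip, Arrdc3 rose by 2.62 ± 0.12, while the MondoA gene Mlxip (-0.64 ± 0.05) and Arrdc4 (-0.27 ± 0.07) fell. Pdp2 (-0.41 ± 0.06) and Pdp1 (-0.18 ± 0.04), phosphatases that reactivate pyruvate dehydrogenase, fell, and pyruvate carboxylase Pcx rose (0.15 ± 0.04). Of 7 pentose phosphate genes 3 rose, among them Pgd (0.15 ± 0.04) and Taldo1 (0.12 ± 0.04), and Rpia fell (-0.60 ± 0.12). G6pc3 (0.24 ± 0.06), Bsg, the partner of the lactate carriers (0.12 ± 0.04), and the brain aldolase Aldoc (0.10 ± 0.04) rose.

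In fibroblasts 2 of 66 such genes were called with TRAP-6 in Gai (1 higher, 1 lower), 4 in Gaq (1 and 3) and 5 in Ga13 (2 and 3), beside 1.12%, 5.61% and 8.38% of all genes. Car9, a carbonic anhydrase induced in hypoxia, was called higher in Gai (0.82 ± 0.10), Gaq (0.65 ± 0.12) and Ga13 (0.48 ± 0.12), and Vhl, which marks the hypoxia factors for degradation, was called lower (-0.28 ± 0.06, -0.32 ± 0.06 and -0.32 ± 0.05). Arrdc3 was called lower in Gaq (-0.62 ± 0.09) and Ga13 (-0.75 ± 0.13). The other calls were Adm in Gaq (-0.12 ± 0.03) and Ddit4 (-0.42 ± 0.06) and Pdp1 (0.37 ± 0.09) in Ga13. None of the 7 other glucose carriers or the 7 pentose phosphate genes tested was called in a fibroblast line.

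Counts of some of the 31 genes can include reads of a neighbour, since the strand setting of the counting is not given in the sources used here. In an annotation of an earlier build, exons of Slc2a1, Hk1, Gpi1, Pfkm, Pfkp, Pfkfb1 and Pfkfb2 overlap a gene on the opposite strand. So do those of Aldoa, Tpi1, Gapdh, Slc16a7, Pdha1 and Txnip. Exons of Pfkm, Pfkfb2 and Pkm overlap a gene on the same strand there.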

How the data were processed

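RNA-seq of 48 libraries (16 groups of 3) was analysed from the raw read counts per gene as deposited by the authors, as whole numbers with no normalization. The submitters' processing notes name fastp, Subread, featureCounts and GRCm39, and the labels' protocols state poly-T selection. Versions, annotation, strand setting and the handling of reads with several matches are not given in the sources used here. Depth was 15.6 to 42.6 M counts per library, which limits genes with few counts such as Pfkfb1. No pair of libraries in a group was identical within counting noise (chi-square per degree of freedom 2.62 to 19.3 over 48 pairs).

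The biosensor row was left out of the fits. edgeR 4.0.16 (R 4.3.3) was used with TMM scaling, its default filter on low counts by group and the robust quasi-likelihood F test, two-sided, with Benjamini-Hochberg adjustment over all genes tested and calls at an adjusted p under 0.05. Each line was fitted alone, the 36 fibroblast libraries together for line differences, and all 48 for cell types. Log2 values are given ± SE. Exon lengths, overlaps and copies came from the GENCODE M21 annotation of GRCm38, matched by symbol. Copies were genes with a transcript of at least 90% identity over at least 200 bases. They were kept if they were pseudogenes, had a single exon or shared the symbol stem of the gene. Genes that overlap the gene and other members of the list were left out. Rows named as its pseudogene or related sequence (-ps or -rs) were added by name, without a test of identity. Alternatives were a replicate block, DESeq2 1.42.0, its size factors, no filter and leaving out each library. Copies summed, principal transcript lengths and library totals were added after seeing the data. The fits were tested on simulated data.

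Per-library values are printed for members called in a line's mean agonist response (at most 8 by smallest adjusted p) or in a Cre or line contrast, and of each other list at most 3 called genes per line are named. Members and lists were chosen with earlier results of these data known. Replicate numbers were taken as pairing libraries where all 18 same-number correlations of deviations from the group means exceeded 0.1, which held in Gai (lowest 0.174), so blocked values are given there.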

Additional observations from a re-analysis of the deposited data

How the results depend on the processing

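Settings were tallied for every gene in the mean response and in astrocytes against fibroblasts. In the other contrasts only genes called with TMM scaling and no block were tallied. Gains such as those of Hk2 and Gpi1 in the difference between viruses in Ga13 are therefore outside the tally. In it 3188 kept the call and its direction or stayed without a call, 123 lost the call, 17 gained one and 2 reversed. The 2 reversals were in astrocytes against fibroblasts under library totals, Eno2 at 0.0524 and Pdha1 at 0.37 on the log2 scale. A change of sign without a call was not counted, as for Pfkfb1 there (-0.20 under TMM, 0.29 under library totals). Counts of the 31 genes called moved by over 1.5 times in the following cases, and the cause was not tested. With the replicate block, Gai had 3 genes with the empty virus, 3 with Cre and 5 in the mean (1.59%, 2.22% and 4.99% of all genes). Numbers did not pair the other lines by the rule used (5, 10 and 12 of 18 correlations over 0.1 in Gas, Gaq and Ga13). By another measure, whether a library correlated best with its own number, Gai did not stand out: 10 of 18 pairs did in Gai, 9 in Gas, 14 in Gaq and 15 in Ga13. In the other lines the block gave 2 genes for the response with Cre and 3 for stimulated Cre against empty virus in Gaq, 7 for the response with Cre and 2 for the difference between viruses in Ga13, 2 for Ga13 minus Gai and 1 for Ga13 minus Gaq. It also called Ldhb in Gas, Pdk3 in Gaq and Tpi1 in Ga13 in the mean response. For the response with Cre in Gai, DESeq2, no filter and library totals each gave 2. For that in Gaq, DESeq2 and no filter each gave 2, and for that in Ga13 library totals gave 7. DESeq2 gave 0 for unstimulated Cre against empty virus in Gaq and 2 for the difference between viruses in Ga13. Apart from the shares given here and above, the share of all genes called is not set beside these counts. They therefore do not show a change particular to the 31 genes.

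Leaving out 1 library gave 0 to 1 genes with the empty virus in Gai (0 without unstimulated replicate 2 or 3 or stimulated replicate 1 or 3 of that virus) and 0 to 2 with Cre (0 without unstimulated Cre replicate 1 or 3, 2 without unstimulated empty virus replicate 1). In Gaq it gave 1 to 4 with the empty virus (1 without unstimulated replicate 1 or 2 or any stimulated one of that virus), 0 to 1 with Cre (0 without stimulated Cre replicate 1) and 0 to 2 for unstimulated Cre against empty virus (2 without unstimulated empty virus replicate 3). In Ga13 it gave 2 to 5 with Cre (2 without unstimulated Cre replicate 2 or 3). The mean response called 9 to 12 genes in Gas, 2 in Gai, 3 to 5 in Gaq and 7 to 8 in Ga13. The share of all genes called in the fits without 1 library is not given here. Genes at few counts (Pfkfb1, 8 to 59 per library) are limited by depth.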
